A study of Mus musculus with 54 samples.

Results

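The 10 genes described here belong to the endoplasmic reticulum (ER) stress response and the integrated stress response, and were measured in primary mouse microglia loaded with α-synuclein (aSyn) or placed beside loaded cells. The genes were taken by name from the count table: Atf4, Ddit3, Trib3, Asns, Chac1, Xbp1, Hspa5, Herpud1, Sesn2 and Ppp1r15a. All 10 were among the 16632 genes of the table, and all 10 were among the 13169 genes left after a filter on low counts. The rule uses pathway membership and no measured value, but the genes were chosen with earlier results of these data known. Shares of the 10 genes set beside shares of all genes are therefore descriptions.

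Microglia of newborn C57BL/6 mice were shaken off mixed glial cultures grown in flasks that each held the cells of 2 brains, in medium with serum and L929 cell supernatant. Donor cells took up 1 µM aSyn carrying a green Atto-488 label for 14 h. Acceptor cells received no aSyn and were stained with a violet dye. Donors and acceptors were then mixed and sorted apart by flow cytometry after 0, 15, 30, 60, 150 or 300 min. Cells kept without aSyn (untreated) and cells given aSyn alone, with no acceptors (aSyn), completed the 14 groups. No other treatment or genotype differed between groups, and the labels do not say whether untreated and aSyn cells went through the sorter. Sorting on labels does not by itself show how much aSyn an acceptor held. The 54 libraries came from 4 numbered experiments. Experiment 1 used passage 3, experiment 2 passage 1, and experiments 3 and 4 passage 2. Untreated libraries with the same number were summed, which left 52 samples: 4 each of untreated and aSyn, and 3 or 4 of each donor and acceptor group. The 0 min groups lack experiment 4, donors at 60 min lack experiment 2 and acceptors at 300 min lack experiment 3. Because experiments differed in level, the mean of such a group is not built from the same experiments as its neighbours.

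The integrated stress response slows general protein synthesis through phosphorylation of the translation factor eIF2 by the kinases PERK, GCN2, PKR and HRI, which sense unfolded ER proteins, amino acid shortage, double-stranded RNA and haem or mitochondrial stress. Translation of ATF4, a bZIP transcription factor, rises under that phosphorylation, and ATF4 turns on genes for amino acid supply, for the factor CHOP (gene Ddit3) and for feedback inhibitors. The unfolded protein response adds the IRE1 branch, which splices Xbp1 mRNA, and the ATF6 branch, and these raise ER chaperones and degradation factors. Counts at the 3′ ends of mRNAs report neither Xbp1 splicing nor ATF4 translation nor eIF2 phosphorylation, so all values here are mRNA levels.

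The promoters were searched for the response elements of these branches, and windows that hold one are printed so that the branch it belongs to can be read beside each gene's values. All 10 genes matched an entry of the RefSeq promoter table (build GRCm38.p6, 32851 promoters of the same length, 250 bases before to 50 after the start). The C/EBP-ATF response element, through which ATF4 acts, was searched as TGATGNAA on both strands. It was present in 4 of the 10 promoters, those of Chac1, Trib3, Asns and Herpud1, and in 3.97% of all promoters. The ER stress response element, bound by ATF6 and spliced XBP1 with NF-Y, was present in the Hspa5 promoter and in 0.119% of all promoters. The ER stress response element II was present in the Herpud1 promoter and in 0.0365% of all. Capitals mark the element in each window, and a match describes letters only, not a bound site.
Chac1, C/EBP-ATF element on the minus strand of the gene, chr2:119351038-119351067, plus strand: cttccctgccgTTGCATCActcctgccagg
Trib3, same element on the gene's minus strand, chr2:152344028-152344057, minus strand: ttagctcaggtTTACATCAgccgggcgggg
Asns, same element in the gene's direction, chr6:7693214-7693243, minus strand: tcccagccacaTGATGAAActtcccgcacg
Hspa5, ER stress response element, chr2:34772020-34772049, plus strand: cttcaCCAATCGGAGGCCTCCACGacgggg
Herpud1, both elements, chr8:94386304-94386403, plus strand: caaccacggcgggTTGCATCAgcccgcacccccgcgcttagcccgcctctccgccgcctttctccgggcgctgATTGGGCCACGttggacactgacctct
The Herpud1 window holds an ATF4-type element first and an element of the unfolded protein response second, starting 112 and 52 bases before the start of transcription. In the other promoters the element starts 193 bases upstream for Chac1, 23 for Asns and 65 for Hspa5, and at base 15 of the transcript for Trib3. The unfolded protein response element TGACGTGG (0.676% of all promoters) was not found in any of the 10 windows. The core ACGTCA (7.51% of all) was found in Hspa5 and Ppp1r15a.

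Library totals ranged from 7807389 to 15537493 counts. The ribosomal transcript Rn45s took a mean of 18.2% of the counts in experiment 4 and 6.60% in the other 3 experiments. Microglial markers were present in all samples (Csf1r averaged 1505 CPM, C1qa 1496 CPM, and neither was at 0 in any sample), while P2ry12 and Tmem119, markers of resting microglia in the brain, were low at 5.93 and 5.21 CPM. CPM here is the count scaled to the library total, with trimmed-mean (TMM) scaling of the totals. Summed over 8 astrocyte markers, untreated samples held a median of 48.2 CPM (11.3 to 139) and aSyn samples 15.3 CPM (11.2 to 29.3). Acceptors held 15.3 CPM (7.59 to 42.3) and donors 15.4 CPM (8.79 to 35.3). Summed over 5 neuronal markers, the medians were 13.3 CPM in untreated, 2.99 in aSyn, 3.11 in acceptor and 1.98 in donor samples. Summed oligodendrocyte-lineage markers had medians of 164 CPM in untreated and 136 CPM in aSyn samples, and microglial markers 6096 and 5032 CPM. None of the 8 astrocyte, 6 oligodendrocyte-lineage or 4 tested neuronal markers was called between aSyn and untreated cells by edgeR (adjusted p under 0.05) without the experiment number as a block, and with it 5, 2 and 1 of them were lower in aSyn cells. The part of these differences in the comparisons with untreated cells was not tested. In bulk samples, fewer cells that express a gene and less RNA per cell cannot be told apart.

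**Figure D1:**
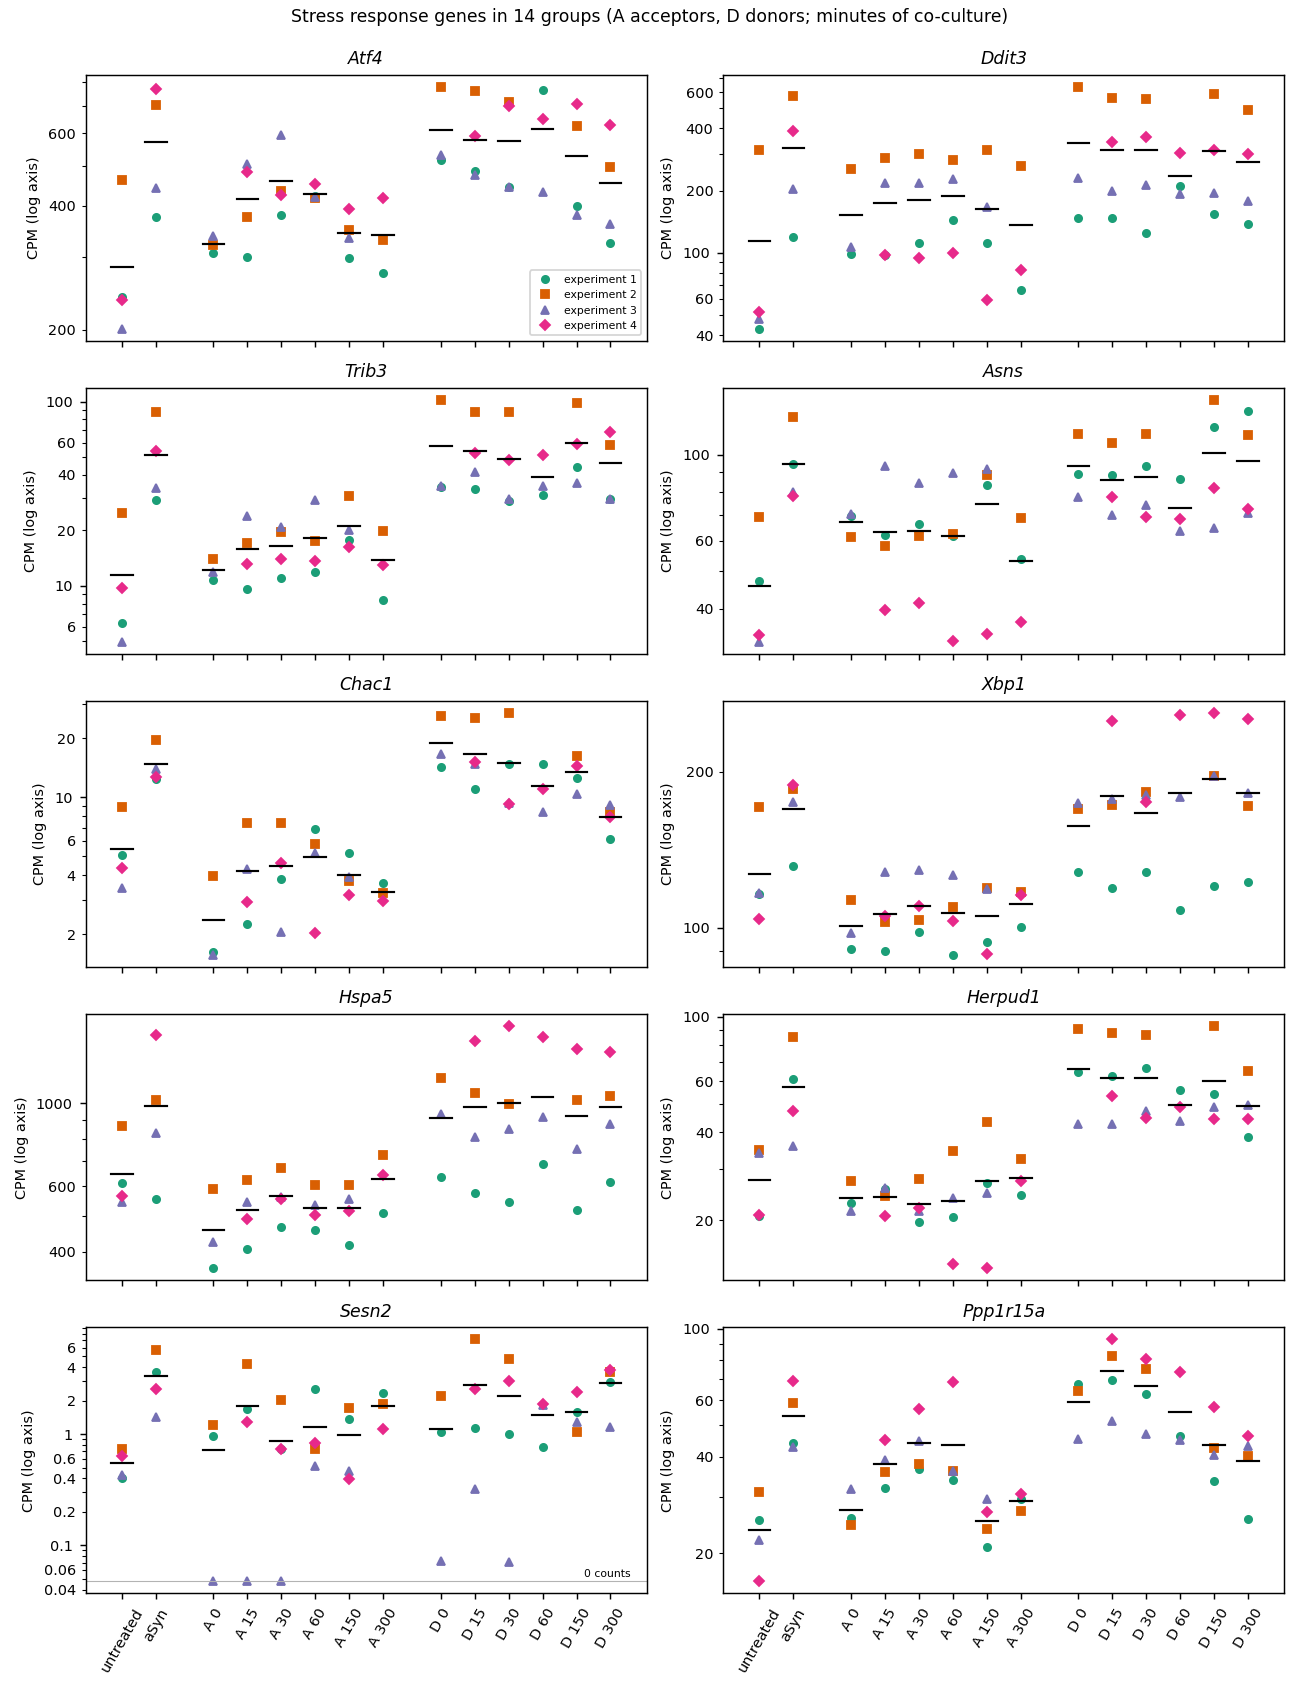
CPM (log axis) of each of the 10 genes in the 14 groups; points are samples, coloured by experiment, and bars are group means. Samples drawn on the grey line of Sesn2 had 0 counts. Orange points (experiment 2) lie highest in untreated cells for all 10 genes.

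The first comparison asks how cells that had taken up aSyn for 14 h differed from untreated cells. Of the 10 genes, 6 passed as higher in aSyn cells: Atf4, Trib3, Asns, Chac1, Herpud1 and Ppp1r15a, by 2.01-fold to 4.40-fold. None passed as lower. Over all tested genes 2.5% were called and 1.6% were called higher (edgeR quasi-likelihood test, Benjamini-Hochberg adjusted p under 0.05). The median log2 fold change was 1.12 for the 10 genes and -0.04 for all genes. A planned fit of only these 8 samples called none of the 10 (lowest adjusted p 0.0732, Sesn2), with fold changes of the same size, for example a log2 of 2.16 (adjusted p = 0.134) for Trib3. The share of all genes called in that smaller fit is not given here. With the experiment number as a block, 9 of 10 rose, all but Xbp1, against 19.2% of all genes called and 8.95% called higher.

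Atf4, the transcription factor at the centre of the integrated stress response, stood at 240, 461, 201 and 235.8 CPM in untreated cells of experiments 1 to 4, and at 376, 703, 441 and 768 CPM in aSyn cells. Each aSyn sample was above the untreated sample of its own experiment, but the groups overlapped through the high untreated sample of experiment 2. The rise was 2.01-fold (log2 1.01 ± 0.26 SE, edgeR adjusted p = 0.0217). Ddit3, which encodes the pro-apoptotic factor CHOP, was at 43.1, 316, 47.8 and 51.6 CPM in untreated and at 120, 574, 203 and 388 CPM in aSyn cells. The untreated sample of experiment 2 lay above the aSyn samples of experiments 1 and 3. The log2 difference of 1.48 ± 0.64 did not pass without the block (edgeR adjusted p = 0.22), and with the block it was 1.76 ± 0.33 (adjusted p = 0.000211).

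Among the ATF4 targets, Trib3, a pseudokinase that restrains ATF4 and AKT signalling, was at 6.26, 24.9, 4.97 and 9.76 CPM in untreated cells and at 29.4, 87.4, 34.0 and 53.8 CPM in aSyn cells. The groups did not overlap, and the rise was 4.40-fold (log2 2.14 ± 0.46, edgeR adjusted p = 0.00521). Chac1, an enzyme that degrades glutathione, was at 5.05, 8.90, 3.43 and 4.37 CPM in untreated and at 12.5, 19.6, 13.9 and 12.7 CPM in aSyn cells. These groups did not overlap either, with a 2.68-fold rise (log2 1.42 ± 0.37, adjusted p = 0.0270). Asns, which makes asparagine, was at 47.2, 69.1, 32.9 and 34.2 CPM against 94.4, 125, 80.3 and 78.04 CPM. It rose 2.06-fold without overlap, close to the threshold (log2 1.04 ± 0.30, adjusted p = 0.0489). Sesn2, an inhibitor of mTORC1 that responds to ATF4, p53 and NRF2, was the least abundant of the 10, with 4 to 17 counts per untreated sample and 18 to 80 per aSyn sample. Its CPM was 0.404, 0.741, 0.429 and 0.641 in untreated and 3.61, 5.69, 1.43 and 2.53 in aSyn cells. All aSyn samples lay above all untreated ones, yet the log2 difference of 2.53 ± 1.00 passed only with the block (adjusted p = 0.167 without and 0.0144 with it).

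Ppp1r15a encodes GADD34, which brings a phosphatase to eIF2 and so ends the response. It was at 25.4, 31.0, 21.9 and 16.3 CPM in untreated and at 44.1, 58.7, 42.9 and 68.8 CPM in aSyn cells. The groups did not overlap, and of the 10 genes it had the lowest adjusted p without the block (2.26-fold, log2 1.18 ± 0.23, edgeR adjusted p = 0.00231).

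The ER genes differed in whether they passed, and the difference between these genes was not tested. Herpud1, an ER membrane protein of the degradation pathway and a target of both branches, was at 20.7, 34.8, 33.9 and 20.8 CPM in untreated and at 61.0, 85.4, 35.9 and 47.3 CPM in aSyn cells. It rose 2.08-fold (log2 1.06 ± 0.29, edgeR adjusted p = 0.0382), with a log2 difference of only 0.09 in experiment 3. Hspa5, which encodes the ER chaperone BiP, was at 610, 870, 544 and 565 CPM in untreated and at 554, 1019, 833 and 1526 CPM in aSyn cells. Its log2 difference ran from -0.14 in experiment 1 to 1.43 in experiment 4, and it passed only with the block (0.51 ± 0.18, adjusted p = 0.0430, and 0.305 without it). Xbp1, the factor of the IRE1 branch, was at 116, 171, 117 and 104 CPM against 131, 185, 175 and 189 CPM. The log2 difference of 0.42 ± 0.22 did not pass in either fit (adjusted p = 0.327 and 0.0692).

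Counted by experiment, 9 of the 10 genes were higher in aSyn than in untreated cells in all 4 experiments, Hspa5 being the exception, where 14.8% of all tested genes were. In 6 genes (Trib3, Asns, Chac1, Herpud1, Sesn2 and Ppp1r15a) every aSyn sample was above every untreated sample, which held for 4.5% of all genes. The number of genes passing without the block varied with the experiment left out. It was 2 without experiment 1, 6 without experiment 2, 1 without experiment 3 and 2 without experiment 4. With the block, 7 or 8 passed whichever experiment was left out. Fold changes kept their sign for all 10 genes in each of these fits. Each of them holds fewer samples, and the share of all genes called in it is not given here.

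**Figure D2:**
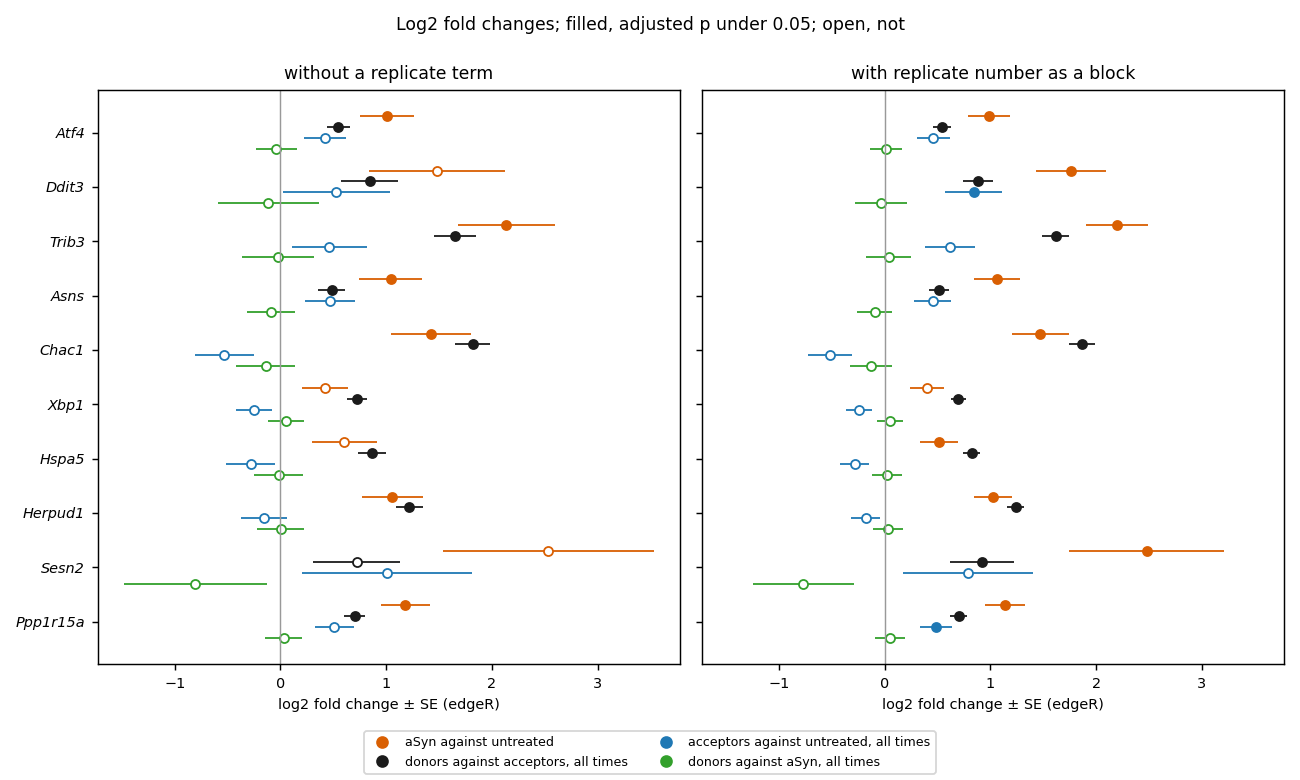
Log2 fold change ± SE from edgeR for the 10 genes in 4 comparisons, without (left) and with (right) the experiment number as a block; filled points passed an adjusted p of 0.05. The contrasts of donors with aSyn cells (green) lie around 0 for 9 genes, and those of aSyn with untreated cells (orange) lie to the right of 0 for all 10.

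The second comparison sets donors against the acceptors they shared a culture with. Over all 6 times together, 9 of 10 genes were higher in donors and none was lower, where 25.6% of all tested genes were called and 12.7% were called higher. Chac1 differed most, 3.53-fold (log2 1.82 ± 0.17, edgeR adjusted p = 7.27e-11), followed by Trib3 at 3.14-fold and Herpud1 at 2.33-fold. Hspa5 was 1.82-fold, Ddit3 1.79-fold, Xbp1 1.65-fold, Ppp1r15a 1.63-fold, Atf4 1.46-fold and Asns 1.40-fold higher. Ddit3 did not pass without experiment 4 (log2 0.59, edgeR adjusted p = 0.207), nor did Asns without experiment 1 (0.44, adjusted p = 0.0806) or experiment 2 (0.42, adjusted p = 0.0517). Sesn2 did not pass without the block (log2 0.72 ± 0.41, adjusted p = 0.204) and passed with it (0.92 ± 0.31, adjusted p = 0.0135), which made 10 of 10 against 44.3% of all genes called and 20.4% called higher. This contrast treats the times of an experiment as separate samples although they come from the same cultures, so the counts by experiment below do not rest on it.

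Chac1 ranged from 6.11 to 26.9 CPM in the 22 donor samples, with a median of 13.3, and from 1.57 to 7.42 CPM in the 22 acceptor samples, with a median of 3.79. Trib3 ranged from 28.9 to 102 CPM in donors (median 42.6) and from 8.34 to 30.7 CPM in acceptors (median 15.2). Herpud1 ranged from 38.6 to 92.6 CPM in donors (median 51.5) and from 13.7 to 43.3 CPM in acceptors (median 24.2). For these 3 genes donors and acceptors did not overlap at any of the 6 times, which held for 0.304% of all genes, and only their ranges pooled over times overlapped. Over all times together no member, and 0.182% of all genes, had every donor sample above every acceptor sample. Hspa5 spanned 518 to 1608 CPM in donors (median 926) and 362 to 724 CPM in acceptors (median 539). Atf4 overlapped widely, with 324 to 779 CPM in donors and 275 to 594 CPM in acceptors, and so did Ddit3, with 125 to 637 and 59.1 to 313 CPM.

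Comparing samples of the same experiment and time gave 21 pairs. Pairs of the same experiment are repeats and not independent samples. The share of all genes higher in every pair is not given here. Donors were higher in 21 of 21 pairs for Trib3, Chac1, Xbp1, Hspa5 and Herpud1, in 20 for Ppp1r15a, in 19 for Atf4, in 18 for Ddit3 and Sesn2, and in 17 for Asns. Averaged over times, 8 of 10 genes were higher in donors in all 4 experiments, against 15.8% of all genes. The exceptions were Asns, lower in donors of experiment 3 (log2 -0.29), and Sesn2, lower in donors of experiment 1 (-0.18). Experiment 3 also had the smallest donor excess of Atf4 (0.08), Ddit3 (0.19), Trib3 (0.78), Herpud1 (0.94) and Ppp1r15a (0.35). Its Chac1 excess of 1.83 was within the range of the other experiments (1.70 to 1.93). Experiment 4 had the largest excess of Ddit3 (1.93), Asns (0.99), Xbp1 (1.18), Hspa5 (1.45) and Sesn2 (1.53).

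**Figure D3:**
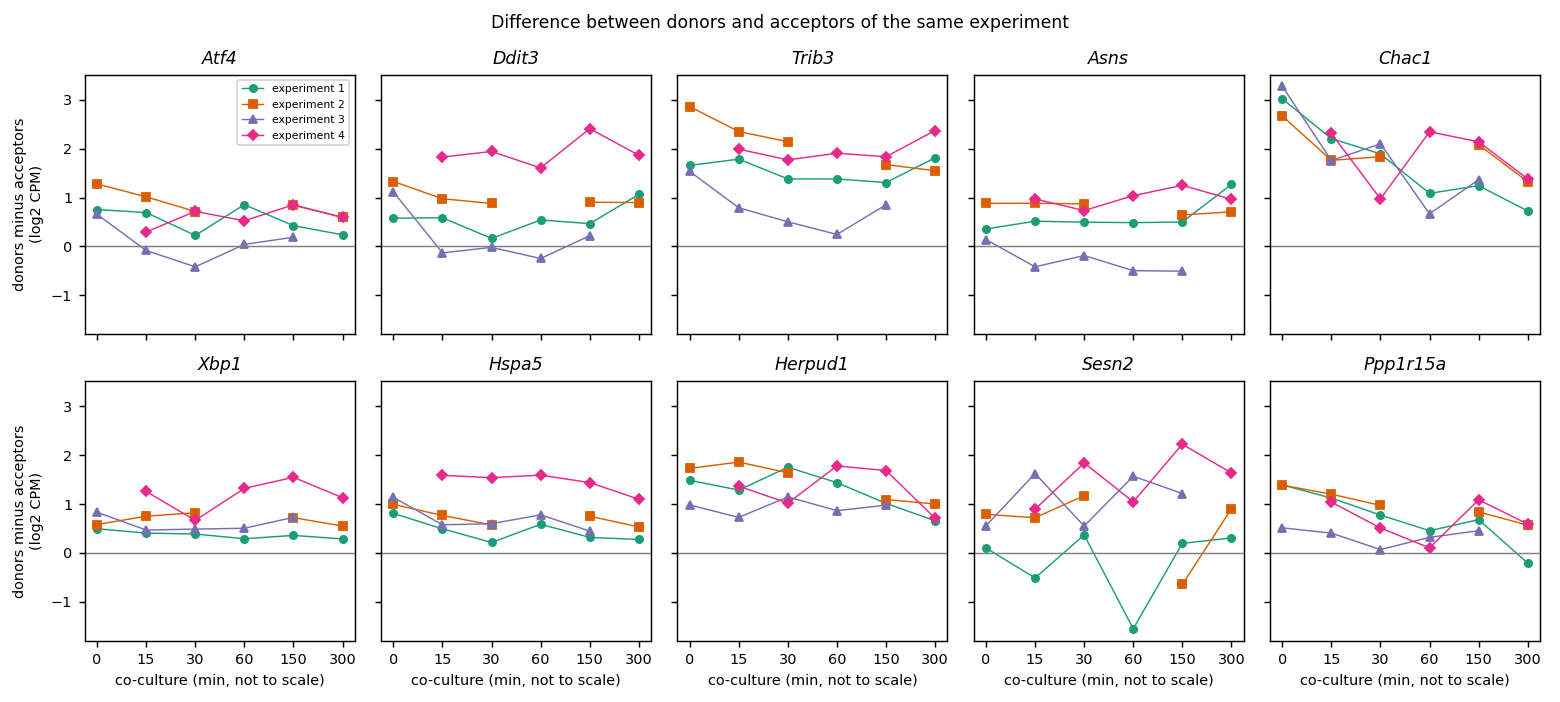
Difference in log2 CPM between donors and acceptors of the same experiment at each time of co-culture (minutes, not to scale), for each gene; colours and symbols are experiments. Chac1 lies above 0 in 21 of 21 pairs and is highest at 0 min in the 3 experiments that have that time, and Asns of experiment 3 (purple) lies below 0 at 4 of 5 times.

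Time by time, 9 of 60 tests of the 10 genes passed without the block: 2 at 0 min (Chac1 and Herpud1), 4 at 15 min (Trib3, Chac1, Herpud1 and Ppp1r15a), 2 at 30 min (Chac1 and Herpud1), 1 at 150 min (Chac1) and none at 60 or 300 min. All 9 were higher in donors. The share of all genes called was 0.251%, 0.888%, 0.805%, 0.418%, 0.167% and 0.0304% from 0 to 300 min. With the block 34 of 60 passed, and the shares of all genes were 4.28%, 9.57%, 10.8%, 6.7%, 5.19% and 1.38%. Trib3, Chac1, Xbp1 and Herpud1 passed at all 6 times in that fit, and Hspa5 at all but 300 min. The donor excess of Chac1 was a log2 difference of 2.98 ± 0.47 at 0 min, 1.99 ± 0.39 at 15 min, 1.74 ± 0.38 at 30 min, 1.19 ± 0.40 at 60 min, 1.75 ± 0.38 at 150 min and 1.27 ± 0.42 at 300 min.

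The third comparison sets acceptors, which received no aSyn directly, against untreated cells. Without the block, none of the 10 genes passed over all times together, where 0.813% of all genes did. In that fit 2 of the 10 had an unadjusted p under 0.05 from edgeR (Atf4 and Ppp1r15a), where 12.1% of all genes had. With the block 8 of the 10 had one, and the share of all genes at that threshold is not given here. DESeq2 called none of the 10. Atf4, Ddit3, Trib3, Asns, Sesn2 and Ppp1r15a had positive log2 differences (0.42 to 1.01), and Chac1, Xbp1, Hspa5 and Herpud1 had negative ones (-0.53 to -0.15). The division by sign was not tested. For all but Chac1 and Hspa5 at least 1 experiment had the other sign, for example Sesn2 in experiment 3 (log2 -1.09) and Herpud1 in experiment 1 (0.16). With the block, Ddit3 (0.84 ± 0.27, edgeR adjusted p = 0.0349) and Ppp1r15a (0.49 ± 0.15, adjusted p = 0.0283) were higher in acceptors, where 10.9% of all genes were called, and Atf4 lay just beyond the threshold (0.46 ± 0.16, adjusted p = 0.0520). Leaving out experiments in turn with the block gave 0 to 4 calls: 4 without experiment 2 (Atf4, Ddit3, Trib3 and Ppp1r15a, all higher), 3 without experiment 4 (Ddit3 higher, Xbp1 and Hspa5 lower), and none without experiment 1 or 3. The share of all genes called in these fits is not given here.

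Experiment 2 set itself apart here. Its untreated cells held the highest level of all 10 genes, and its acceptors were below them for 9 genes, with log2 differences from -0.82 (Chac1) to -0.03 (Ppp1r15a), and above for Sesn2 alone (1.07). In experiments 1, 3 and 4 the acceptors were above untreated cells for Atf4 (0.45, 1.09 and 0.88), Ddit3 (1.25, 1.91 and 0.72), Trib3 (0.83, 2.00 and 0.51), Asns (0.47, 1.37 and 0.11) and Ppp1r15a (0.20, 0.70 and 1.38). Chac1 and Hspa5 were lower in acceptors than in untreated cells in all 4 experiments. These patterns were picked after the values were seen, and the shares of all genes with them are not given here. This comparison and the first share the untreated samples, so a high or low untreated sample moves both.

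By time, none of the 60 tests of acceptors against untreated cells passed without the block; the shares of all genes were 0% at 0, 15 and 300 min, 0.114% at 30 min, 0.0683% at 60 min and 0.137% at 150 min. At an unadjusted p under 0.05 from edgeR there were 8 of 60 without the block, against 6.78% of the tests of all genes. With the block there were 20 of 60, and the share of all genes at that threshold is not given here. DESeq2 called 1. With the block 6 passed: Chac1 lower at 0 min (-1.28 ± 0.33), Atf4 and Ppp1r15a higher at 30 min (0.74 ± 0.20 and 0.86 ± 0.19), Ddit3 and Ppp1r15a higher at 60 min (1.16 ± 0.33 and 0.82 ± 0.19), and Trib3 higher at 150 min (1.01 ± 0.30). The shares of all genes in that fit were 0.995%, 2.25%, 3.6%, 4%, 4.78% and 0.623% from 0 to 300 min. Ppp1r15a averaged 23.7 ± 6.16 CPM (SD, n = 4) in untreated cells. In acceptors it was at 27.3 ± 3.92 CPM (n = 3) at 0 min, 37.9 ± 5.57 (n = 4) at 15 min, 43.9 ± 9.09 (n = 4) at 30 min, 43.5 ± 16.6 (n = 4) at 60 min, 25.2 ± 3.78 (n = 4) at 150 min and 29.1 ± 1.81 (n = 3) at 300 min. The 60 min mean rests on experiment 4, at 68.4 CPM where the other 3 samples lay between 33.8 and 36.0.

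No difference between donors and cells given aSyn alone passed the test. None of the 10 genes passed in donors over all times against aSyn cells (0.00759% of all genes without and 0.0152% with the block), and none had an unadjusted p under 0.05 without the block, where 1.44% of all genes had. None passed at a single time: the share of all genes was 0% from 0 to 150 min in both fits, and 0.0304% at 300 min without and 0.304% with the block. Of the 60 tests by time 3 had an unadjusted p under 0.05 without the block, against 1.75% of the tests of all genes, and DESeq2 called none. The lowest p was that of Chac1 at 300 min, at 7.89 ± 1.30 CPM (SD, n = 4) in donors against 14.7 ± 3.35 (n = 4) in aSyn cells. Its log2 difference of -0.90 ± 0.37 had an unadjusted p of 0.0198 from edgeR and an adjusted p of 1. The other two were Ppp1r15a at 15 min (log2 0.47 ± 0.23) and at 300 min (-0.47 ± 0.23). By size the difference was largest for Sesn2 at 0 min, at 1.11 ± 1.06 CPM (n = 3) in donors against 3.31 ± 1.81 (n = 4) in aSyn cells, with a log2 difference of -1.57 ± 1.06 and an unadjusted p of 0.145 from edgeR (adjusted p = 1). Averaged over times, Sesn2 was lower in donors than in aSyn cells in experiments 1 to 3 (log2 -1.39, -0.83 and -1.24) and not in experiment 4 (0.06). These contrasts share the aSyn samples with the first comparison.

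Over time within donors, Chac1 averaged 18.9 ± 6.21 CPM (n = 3) at 0 min, 16.6 ± 6.12 at 15 min, 15.0 ± 8.30 at 30 min, 11.4 ± 3.21 (n = 3) at 60 min, 13.4 ± 2.56 at 150 min and 7.89 ± 1.30 at 300 min (SD, n = 4 where not given). Ppp1r15a in donors averaged 59.0 ± 11.9, 74.1 ± 17.7, 66.2 ± 14.8, 54.9 ± 16.1, 43.5 ± 9.97 and 38.8 ± 9.19 CPM at the same times. In each experiment Ppp1r15a was higher at 15 min than at 300 min. The test for any change over the 6 times passed for none of the 10 genes without the block in donors (0.0607% of all genes called), in acceptors (0.00759%) or in the difference between their courses (0%). At an unadjusted p under 0.05 there were 2 genes in donors (1.88% of all genes), 1 in acceptors (1.86%) and 0 in the difference (0.858%), and DESeq2 called none in any of them. With the block Ppp1r15a alone passed, in donors (edgeR adjusted p = 0.0120, against 0.577% of all genes called). In acceptors its adjusted p was 0.125 (0.137% of all genes called), and no member passed for the difference between courses (0.0456%).

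Ordered by group mean, 6 genes had each of the 7 aSyn-loaded groups (aSyn and donors at 6 times) above each of the 7 unloaded groups (untreated and acceptors at 6 times): Ddit3, Trib3, Chac1, Xbp1, Hspa5 and Herpud1. Over all genes 6.67% did. Trib3 ran from 11.5 ± 9.18 CPM in untreated cells, the lowest group, to 21.2 ± 6.52 in acceptors at 150 min among unloaded groups, and from 39.1 ± 10.8 in donors at 60 min to 59.3 ± 27.6 in donors at 150 min among loaded ones. Its lowest loaded mean is that of the group without experiment 2, the experiment with the highest Trib3. For Atf4, donors at 300 min (453 ± 139 CPM) lay within the spread of acceptors at 30 min (459 ± 93.5). For Asns, donors at 60 min (72.7 ± 12.04 CPM) lay within that of acceptors at 150 min (74.6 ± 27.0). For Ppp1r15a, donors at 300 min and at 150 min stood below acceptors at 30 and 60 min. Among the loaded groups, neighbours in the order differed by less than the larger of their SDs for each of the 10 genes, except Chac1 between donors at 300 and 60 min.

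The 10 genes moved together across samples. After subtraction of each experiment's mean, all 45 pairs of genes had a positive Pearson r of log2 CPM over the 52 samples, with a median of 0.69. The highest was between Xbp1 and Hspa5 (0.92) and the lowest between Atf4 and Sesn2 (0.20). Within the ATF4 branch Trib3 and Asns reached 0.89, Ddit3 and Trib3 0.88, and Atf4 and Ddit3 0.87. Chac1 was closer to Herpud1 (0.84) than to Asns (0.60), and Ppp1r15a was closest to Atf4 (0.82). Sesn2 stayed at 0.48 or lower with every other gene, at counts that fell to 0 in 3 acceptor samples of experiment 3. The samples share libraries, experiments and the contrast between loaded and unloaded cells, so these values describe and are not tests. No values for other sets of genes are given, so likeness particular to these 10 is not shown.

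**Figure D4:**
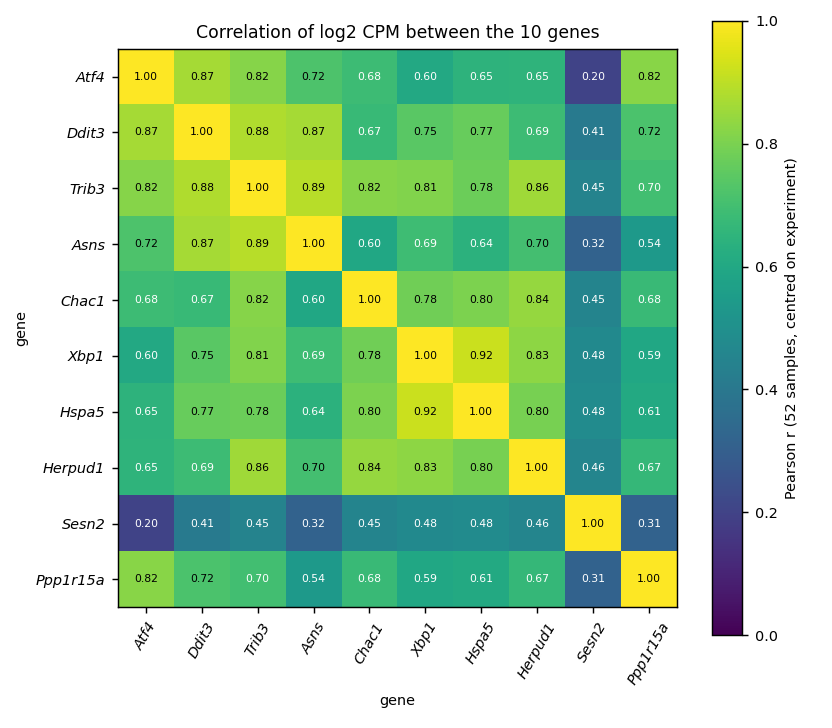
Pearson r between the 10 genes over 52 samples, from log2 CPM after subtracting each experiment's mean; both axes list the genes. Values run from 0.20 (Atf4 with Sesn2) to 0.92 (Xbp1 with Hspa5).

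Over all genes with a mean of at least 5 CPM, those most like Ddit3 by the same measure were Nupr1 (0.94), a stress-induced chromatin protein, Nfe2l1 (0.94), which controls proteasome genes, Ccl8 (0.93), a chemokine, Aars (0.93), the alanyl-tRNA synthetase, and Psmb6 (0.93), a proteasome subunit. Those most like Asns were Aars (0.94), Hspa9 (0.91), a mitochondrial chaperone, Eif4ebp1 (0.90), an inhibitor of translation initiation, Gars (0.90), the glycyl-tRNA synthetase, and Trib3 (0.89). Those most like Hspa5 were Psmb5 (0.94), Sh3bp5 (0.94), Ggct (0.93), Acaa1a (0.93) and Adprh (0.93). Psmb5 is a proteasome subunit and Ggct an enzyme of glutathione breakdown.

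Other genes of the same pathways, in 8 lists, gave 135 tested genes outside the 10. The lists were written with earlier results of these data known, so their shares are descriptions and not independent support. In aSyn against untreated cells 13 rose and none fell (9.63%, against 2.5% of all genes called), and with the block 51 rose and 2 fell (39.3%, against 19.2%). In donors against acceptors 66 were higher and 9 lower (55.6%, against 25.6%). In acceptors against untreated cells 2 were called, Sqstm1 and Mdm2 (1.48%, against 0.813%). With the block 14 were higher and 5 lower there (14.1%, close to the 10.9% of all genes). In donors against aSyn cells none was called in either fit.

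**Figure D5:**
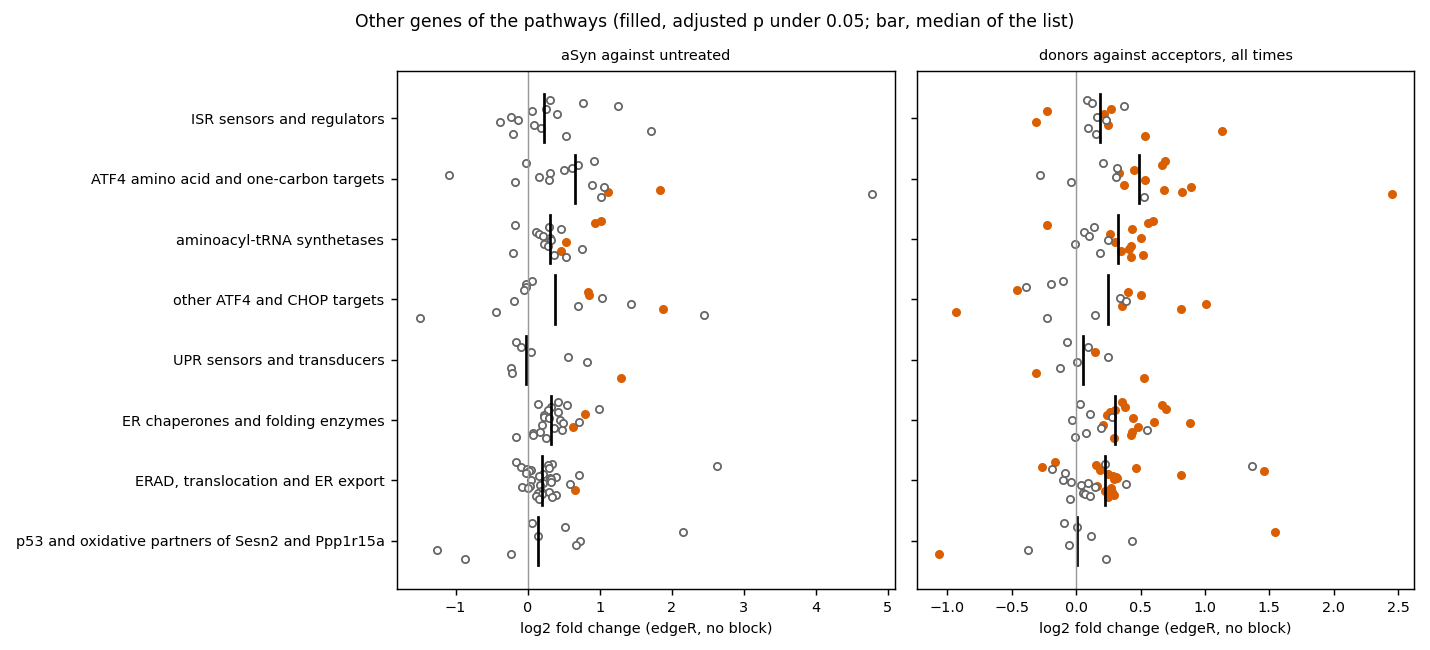
Log2 fold changes (edgeR, without the block) of the other pathway genes by list, for aSyn against untreated cells (left) and donors against acceptors (right); each point is a gene, filled where the adjusted p was under 0.05, and bars are list medians. The median of the ATF4 amino acid list lies at 0.65 on the left, and that of the sensors of the unfolded protein response at -0.02.

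Transporters and enzymes of amino acid supply had the highest list median in aSyn against untreated cells (0.65, with 2 of 16 called, against -0.04 for all genes). Slc6a9, a glycine transporter, went from 4.47 ± 0.631 to 16.02 ± 4.06 CPM (SD, n = 4 in each group; log2 1.84 ± 0.45, edgeR adjusted p = 0.0175). Slc7a1, a transporter of basic amino acids, went from 26.7 ± 5.16 to 58.0 ± 7.22 CPM (1.12 ± 0.25, adjusted p = 0.00691). Among 18 aminoacyl-tRNA synthetases, 4 were called in this comparison, all higher, where 2.5% of all genes were called. In donors against acceptors 11 were higher and 1 lower, where 25.6% of all genes were called. Cars rose from 37.2 ± 13.5 to 71.4 ± 10.4 CPM, Aars from 107 ± 33.2 to 217 ± 41.5 CPM and Nars from 183 ± 29.4 to 265.97 ± 43.4 CPM. They charge tRNA with cysteine, alanine and asparagine.

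Of 14 other targets of ATF4 and CHOP, 3 rose with aSyn, where 2.5% of all genes were called. They were Sqstm1, the autophagy receptor p62 and a target of NRF2 as well (548 ± 103 to 2015 ± 482 CPM, log2 1.88 ± 0.28, edgeR adjusted p = 0.000116), Ero1l, an ER oxidase (23.7 ± 3.10 to 42.8 ± 10.3 CPM), and Eif4ebp1 (71.01 ± 18.9 to 127 ± 23.7 CPM). None of 14 sensors and regulators of the integrated stress response was called without the block. With it 5 rose, where 19.2% of all genes were called. Among them were the haem-regulated kinase gene Eif2ak1 (log2 0.43, edgeR adjusted p = 0.000286) and Nupr1 (2.11, adjusted p = 0.000650).

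On the ER side, 2 of 23 chaperones and folding enzymes rose with aSyn, P4hb (170 ± 12.6 to 263 ± 33.4 CPM) and Ero1lb (13.8 ± 2.86 to 24.0 ± 3.27 CPM), and 8 with the block. Over all genes 2.5% were called in that comparison, 19.2% with the block, and 25.6% in donors against acceptors without it. In donors against acceptors 15 of 23 were higher and none lower, with a list median of 0.30. In the list of degradation, translocation and ER export, 1 of 33 rose with aSyn, close to the share of all genes called. It was Srpr, a subunit of the signal recognition particle receptor (47.9 ± 5.54 to 75.8 ± 15.4 CPM). In this list 17 were higher and 2 lower in donors. Of 8 sensors and transducers of the unfolded protein response, Traf2, an adaptor of IRE1 and of TNF receptors, was the single call in aSyn against untreated cells (6.88 ± 2.76 to 16.9 ± 6.13 CPM), and 2 were higher and 1 lower in donors against acceptors.

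The list of p53 and oxidative stress partners of Sesn2 and Ppp1r15a held 9 tested genes. In aSyn against untreated cells none of them was called without the block, where 2.5% of all genes were. In donors against acceptors 1 was higher and 1 lower, where 25.6% of all genes were called. With the block, in aSyn against untreated cells, Gadd45b (log2 1.91) and Mdm2 (0.70) were among 4 that rose, and Sesn1 (-1.70) and Txnip (-0.91) were the 2 that fell. Over all genes 19.2% were called in that fit.

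Some members share their locus with another gene. In the GENCODE models for the same build, Ddit3 overlaps Mars on the opposite strand at the 3′ ends, and Ppp1r15a overlaps Tulp2. Whether reads were counted by strand is not given in the sources used here. Mars had a log2 difference of 0.32 (edgeR adjusted p = 0.699) between aSyn and untreated cells, and Tulp2, at a mean of 0.708 CPM, one of -0.12 (adjusted p = 0.970).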

How the data were processed

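Primary mouse microglia in 14 groups were profiled by 3′ end sequencing (QuantSeq) in 54 libraries. Values are the raw counts per gene that the authors deposited, a table of whole numbers per the file headers. The submitters' processing notes name STAR, Partek, DESeq2 and build mm10 without roles, and annotation and use of strand are not given in the sources used here. The DESeq2-normalized table was not used. Samples were grouped by title, and untreated libraries with the same number were summed (52 samples). The 3 or 4 samples of a group carry experiment numbers, but nothing in the labels says that they came from separate litters, so p-values measure the spread between these samples.

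Counts were scaled by TMM and tested with edgeR 4.0.16 (R 4.3.3; quasi-likelihood F test, filterByExpr with a minimum count of 10, all 14 groups in a model of group means, Benjamini-Hochberg over 13169 genes in each comparison, threshold 0.05). SE is the log2 fold change divided by the square root of F. Log2 CPM used a prior count of 2. Same-numbered samples deviated together in 313 of 313 pairs of groups (correlation of deviations 0.154 to 0.780, median 0.445), so the numbers, taken from the titles, were treated as pairing and a fit with the number as a block was run. Without the block the typical biological coefficient of variation was 38.1%, and with it 21.0%. Alternatives were DESeq2 1.42.0, RLE scaling, no filter, the groups compared alone, separate untreated libraries, Rn45s left out, and each replicate left out, the last also with the block (added after seeing the data). The code was tested on simulated data. Library totals of 7807389 to 15537493 counts leave the 9 more abundant genes with 15 or more counts in each sample, and Sesn2 with 0 to 101.

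The 10 genes and the pathway lists were chosen with earlier results of these data known. Of each pathway list, up to 3 genes in each direction are named by the size of the fold change among those called in aSyn against untreated cells without the block, or, where none was called, up to 2 in each direction by the lowest p with the block. The genes most like Ddit3, Asns and Hspa5 are the first 5 by r. Promoter windows and coordinates are RefSeq's on GRCm38.p6, the same build as mm10.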

Additional observations from a re-analysis of the deposited data

Results flagged for a closer look

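Within groups of 4 samples, 6 of 100 sets of a gene in a group held a sample far from the other 3, where chance alone flags about 1 set in 20. Experiment 2 of the untreated group stood high for Atf4 (461 CPM, the others 201 to 240) and for Ddit3 (316 CPM, the others 43.1 to 51.6). Experiment 4 of acceptors stood low for Asns at 150 min (34.4 CPM, the others 83.6 to 91.9) and high for Ppp1r15a at 60 min (68.4 CPM, the others 33.8 to 36.0). Experiment 1 stood low for Xbp1 in donors at 30 min (128 CPM, the others 175 to 183) and high for Sesn2 in acceptors at 60 min (2.55 CPM, the others 0.521 to 0.833).

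Changes from 0 min went in opposite directions in donors and acceptors in all 3 experiments that allow the comparison, down in donors and up in acceptors, for Chac1 and Hspa5 at 15 min, for Atf4, Ddit3, Trib3 and Hspa5 at 30 min, and for Hspa5 at 150 min. These cases were picked for that pattern among all members and later times, and the share of all genes with it is not given here. Every change uses the same 0 min samples, so the cases are not separate support. Over these 3 experiments the donor change minus the acceptor change in log2 CPM averaged -1.08 ± 0.38 (SD, n = 3) for Chac1 and -0.37 ± 0.17 for Hspa5 at 15 min. At 30 min it was -0.72 ± 0.31 for Atf4, -0.67 ± 0.41 for Ddit3, -0.68 ± 0.38 for Trib3 and -0.52 ± 0.09 for Hspa5, and at 150 min -0.47 ± 0.22 for Hspa5. The edgeR fit of all samples, whose later groups also hold experiment 4 while the 0 min groups do not, gave -0.989 for Chac1 and -0.0707 for Hspa5 at 15 min, -0.594 for Atf4, -0.353 for Ddit3, -0.661 for Trib3 and -0.167 for Hspa5 at 30 min, and -0.175 for Hspa5 at 150 min. None passed the edgeR interaction test over all genes in that fit, nor in fits of experiments 1 to 3 alone, where the lowest adjusted p was 0.557 (Hspa5 at 150 min, with the block; unadjusted p = 0.00494).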

How the results depend on the processing

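With the replicate block, the pairing by experiment number, counts of members called were 2 for acceptors against untreated cells over all times, 34 for donors against acceptors by time, 6 for acceptors against untreated cells by time and 1 for the tests of time, and pathway genes called were 53 with aSyn and 19 in acceptors. The block changed no other count by more than 1.5 times. Fitting only the groups compared gave 0 members for aSyn against untreated cells and 1 for donors against acceptors by time. DESeq2 gave 14 in the latter and 1 for acceptors against untreated cells by time, as did keeping untreated libraries separate. Without a filter 1 pathway gene was called in acceptors. Leaving out a replicate gave 1 to 6 members with aSyn, 1 to 9 by time in donors against acceptors, 4 to 11 pathway genes with aSyn and 0 to 1 in acceptors; with the block it gave 0 to 4 members in acceptors over all times. Of single fold changes under an alternative, 1054 kept direction and call, 64 gained a call, 56 lost it and 2 reversed: donors against acceptors at 60 min for Ddit3 without replicate 4 (-0.104, range -0.104 to 0.593 with each replicate left out) and for Sesn2 without replicate 3 (-0.0574, range -0.0574 to 1.43). The cause was not tested. Leaving out a replicate also leaves fewer samples, and the share of all genes called in those fits is not given here. Sesn2 had 0 to 101 counts per sample, the fewest of the 10 genes.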
